A study of Mus musculus with 6 samples.

Results

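The variable (V) gene segments of the mouse immunoglobulin heavy chain locus, named Ighv, were described in colon RNA-seq libraries from Adamts4 knockout (KO) and wild-type (WT) mice. Segments were selected on their symbol, which had to begin with Ighv, and on their read counts, which had to sum to 10 or more over all 6 libraries. This held for 86 of 113 Ighv rows in a table of 21899 genes. Of the other 27 rows, 15 had no count and 12 had 1 to 9 counts. Each genotype had 3 libraries of colon RNA, and every mouse, KO or WT, had received 2.5% dextran sodium sulfate (DSS), which injures the colonic epithelium, for 7 days. Adamts4 encodes a secreted protease that cleaves proteoglycans. Its counts were 0 in each KO library and 900, 992 and 997 in the WT libraries. Knockout allele, strain, sex and litter are not given in the sources used. Loss of Adamts4 and differences of genetic background, including in the V segments the animals carry, cannot be told apart. Nothing in the labels says that each library came from a separate animal, and the spread that p-values measure may be technical.

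In a developing B cell, V(D)J recombination joins 1 V segment to a D and a J segment, and the joined exon encodes the variable domain of the heavy chain. All descendants of that cell carry the same join, so Ighv reads in a tissue show which V segments its B cells and plasma cells use, each clone weighted by how much antibody mRNA it makes. Plasma cells carry far more of this mRNA than resting B cells. In the colon most of them secrete IgA, which the receptor encoded by Pigr carries across the epithelium. The first number in a segment's name is its family, a group related by sequence, and the second usually follows its order along the locus.

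All 86 segments matched V genes of the GENCODE M21 annotation of GRCm38. They lie on the minus strand of chromosome 12 between 113572927 and 116010093, a stretch of 2437 kb, with the low coordinates nearest to the constant region gene Ighm. The sequences below are 280 bases of the germline coding strand, 5′ to 3′, from GENCODE M21 transcripts of that build, and end with the TGT codon of the cysteine that precedes the junction. They show how much a segment that stood out resembles another of its family, and capitals mark the bases that differ from the partner at the same position. The partner is not always the nearest relative over these bases. That was Ighv1-72 for Ighv1-64 (95.7% identity), Ighv1-26 for Ighv1-18 (97.1%) and Ighv1-22 for Ighv1-34 (96.4%). Ighv1-64, the segment of highest mean share over the libraries, is shown with Ighv1-55, whose values are given below and which differs from it at 15 of these positions (94.6% identity).
Ighv1-64: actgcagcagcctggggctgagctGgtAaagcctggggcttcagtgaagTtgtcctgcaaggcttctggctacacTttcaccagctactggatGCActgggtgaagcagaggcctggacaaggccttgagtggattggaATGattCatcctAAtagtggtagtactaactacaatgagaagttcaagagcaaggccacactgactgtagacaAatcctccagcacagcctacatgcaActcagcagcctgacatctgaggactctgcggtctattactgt
Ighv1-55: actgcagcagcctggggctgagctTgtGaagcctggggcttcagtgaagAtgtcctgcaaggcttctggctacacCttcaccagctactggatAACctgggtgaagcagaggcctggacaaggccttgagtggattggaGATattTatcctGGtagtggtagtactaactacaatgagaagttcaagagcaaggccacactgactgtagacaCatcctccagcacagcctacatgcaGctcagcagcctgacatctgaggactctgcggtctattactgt

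Ighv5-9 and Ighv5-6, the pair with the lowest KO levels among the segments called lower, differ at 12 positions (95.7% identity).
Ighv5-9: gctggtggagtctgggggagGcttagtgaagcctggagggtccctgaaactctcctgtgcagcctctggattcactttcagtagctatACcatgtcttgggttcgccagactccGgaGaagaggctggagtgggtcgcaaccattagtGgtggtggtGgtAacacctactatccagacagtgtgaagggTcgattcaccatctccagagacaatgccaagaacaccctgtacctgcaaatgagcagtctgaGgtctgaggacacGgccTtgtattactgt
Ighv5-6: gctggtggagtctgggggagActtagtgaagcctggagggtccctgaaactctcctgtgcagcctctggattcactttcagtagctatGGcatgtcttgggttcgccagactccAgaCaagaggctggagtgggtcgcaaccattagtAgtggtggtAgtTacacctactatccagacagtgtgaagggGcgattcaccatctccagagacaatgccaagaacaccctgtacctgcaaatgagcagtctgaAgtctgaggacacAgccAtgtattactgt

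Ighv1-18 and Ighv1-34, both also called lower, differ at 12 positions as well (95.7% identity).
Ighv1-18: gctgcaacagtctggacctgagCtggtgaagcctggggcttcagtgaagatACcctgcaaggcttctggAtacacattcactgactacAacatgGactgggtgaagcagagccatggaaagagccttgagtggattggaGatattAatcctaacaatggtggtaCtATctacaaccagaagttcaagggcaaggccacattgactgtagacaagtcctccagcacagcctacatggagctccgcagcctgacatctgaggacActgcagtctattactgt
Ighv1-34: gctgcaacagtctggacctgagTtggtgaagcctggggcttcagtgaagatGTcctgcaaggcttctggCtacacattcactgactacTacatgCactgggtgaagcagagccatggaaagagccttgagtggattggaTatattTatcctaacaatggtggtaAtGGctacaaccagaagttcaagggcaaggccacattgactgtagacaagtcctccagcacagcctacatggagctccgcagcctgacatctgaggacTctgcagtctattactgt

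Ighv3-6 was called lower, and its relative Ighv3-1 led a single KO library. They differ at 19 positions (93.2% identity).
Ighv3-6: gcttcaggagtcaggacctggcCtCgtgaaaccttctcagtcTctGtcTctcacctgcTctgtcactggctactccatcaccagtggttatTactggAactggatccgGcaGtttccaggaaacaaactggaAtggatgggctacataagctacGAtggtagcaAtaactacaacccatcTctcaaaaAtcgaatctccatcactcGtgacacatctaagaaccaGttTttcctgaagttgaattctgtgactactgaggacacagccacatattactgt
Ighv3-1: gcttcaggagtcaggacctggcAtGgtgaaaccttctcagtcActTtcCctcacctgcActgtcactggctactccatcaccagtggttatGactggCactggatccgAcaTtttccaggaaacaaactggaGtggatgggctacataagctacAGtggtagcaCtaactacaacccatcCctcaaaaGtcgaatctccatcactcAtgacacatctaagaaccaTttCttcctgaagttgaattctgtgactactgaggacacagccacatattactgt

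This resemblance limits how exactly reads can be given to a segment. Over these 280 bases, aligned at the cysteine, the median identity of 2 segments was 85.7% within a family and 43.2% between families, and of the 84 included segments in which this stretch was found 54 had a relative at 95% or more. A median of 77.0% of a segment's runs of 50 bases occurred in no other annotated Ighv gene, with a range from 2.58% to 100%. That share was under 50% for 11 of the 86. The treatment of reads that match several segments in the authors' counting is not given, and in plasma cells the segments also carry somatic mutations, so single-segment values are less certain than sums over families or over the locus. A segment with near-identical relatives is therefore uncertain as a single entity. An example is Ighv1-72, with 7.49% of its runs unique to it.

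The libraries held 15786214 to 22932125 counts in all. KO 3 stood apart in its levels of fibroblast and endothelium markers. The summed level of 5 fibroblast markers was 337 CPM (reads scaled to library size with TMM factors) there against 1139 to 2150 in the other 5 libraries, and that of 3 endothelium markers was 50.6 against 117 to 207. Results below are given without KO 3 where it carried them. In such bulk tissue, fewer cells of a type and less RNA per cell cannot be told apart.

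Ighv transcripts were scarcer in the KO colons. Values are listed in the order of the library numbers. The 86 segments took 5108, 1693 and 1254 counts in the KO libraries and 10014, 22150 and 8054 in the WT libraries. As CPM the sums were 262, 105 and 67.3 in KO against 428, 1128 and 452 in WT, so every KO library lay below every WT library. The means were 145 ± 103 and 669 ± 397 CPM (SD, n = 3), 4.62-fold lower in KO. WT 2 had the highest sum and KO 1 the highest of its group. Without WT 2 the difference was 3.04-fold and without KO 1 it was 7.78-fold. Without any 1 of the other libraries it lay between 3.65-fold (KO 3 left out) and 5.45-fold. No p is given for these sums, because the segments were chosen with results of these data known. Markers of some other cells differed in the same libraries. The summed levels of T cell, macrophage, colon epithelium and fibroblast markers overlapped between the groups. The summed level of 5 neutrophil markers was 54.7 to 60.5 CPM in KO and 119 to 413 in WT, with 4 of the 5 genes lower in every KO library than in any WT library and Ngp at 0 in KO 2 and KO 3. For 5 erythroid markers, all lower in every KO library, the sums were 81.2 to 236 and 380 to 1697 CPM. The 3 endothelium markers summed to 50.6 to 151 CPM in KO and 168 to 207 in WT, with 2 of the 3 lower in every KO library. The 3 smooth muscle markers summed to 2108 to 2517 CPM in KO and 1276 to 1924 in WT, with 2 of the 3 higher in every KO library. Of all genes with 10 or more counts, 10.1% were lower in every KO library than in any WT library and 8.89% higher. None of these 16 neutrophil, erythroid, endothelium and smooth muscle genes passed in edgeR. There 11 had an unadjusted p below 0.05 on the lower side (7.85% of all genes tested). DESeq2 called 7 of the 16 lower (2.97% of all genes) and 1 higher (117 of 14511 genes). Their part in the Ighv difference was not tested.

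**Figure D1:**
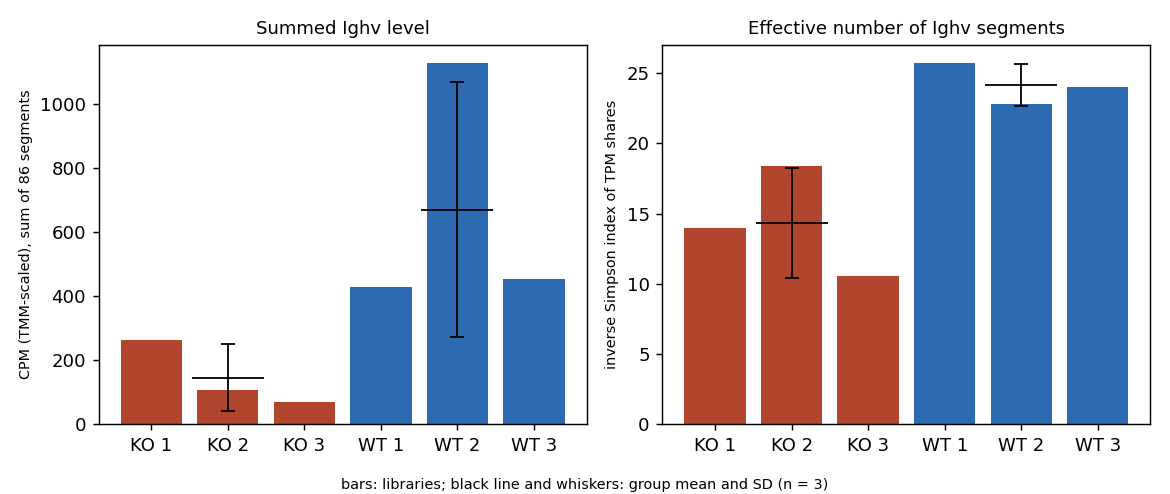
Summed Ighv level as TMM-scaled CPM (left) and effective number of segments as the inverse Simpson index of TPM shares (right), with 1 bar per library and the group mean and SD (n = 3) as a black line with whiskers. The KO sums of 67.3 to 262 CPM lie below the WT sums of 428 to 1128, and the KO indices of 10.6 to 18.4 lie below the WT indices of 22.8 to 25.8.

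The lower sum was spread over the locus. Of the 86 segments, 79 had a lower mean CPM in KO and 7 a higher one. A segment with few KO reads could be included through its WT reads. The inclusion rule thus favoured the lower direction in the segment counts and medians of this paragraph. The median log2 ratio of group means (KO over WT, 0.5 CPM added to each) was -1.71, against 0.02 over all genes with 10 or more counts, of which 46.9% had a lower mean in KO. In 39 segments (45.3%) all 3 KO libraries lay below all 3 WT libraries, which was so for 10.1% of all genes with 10 or more counts. The reverse order occurred in 0 of the 86 segments and in 8.89% of genes. With no pseudocount, and with segments that had no KO count set at a floor of 3 counts over the KO group, the median was -2.80. No single segment carried the difference of 524 CPM between the group means. Ighv1-72 made up 8.92% of it and Ighv2-2 7.00%, and 10 segments together passed 50%. Both of these rested on WT 2. Ighv1-72 had 14.5, 126 and 8.25 CPM in the WT libraries against 4.11, 2.97 and 1.39 in KO, and Ighv2-2 had 3.12, 112 and 2.58 against 3.90, 2.79 and 0.751. For Ighv1-72 the groups did not overlap, whereas for Ighv2-2 they did.

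Single segments were tested with the quasi-likelihood F-test of edgeR over all genes, with a call at a Benjamini-Hochberg adjusted p below 0.05. Among 14553 genes tested, 0.151% were called lower and 0.00687% higher in KO. Of the 86 segments 55 entered this test, and 5 were called lower and 0 higher. An unadjusted p below 0.05 on the lower side was found for 37 of the 55 and for 7.85% of all genes tested, and on the higher side for 0 of the 55. Only 18 of the 55 reached the expression cutoff in every KO library. The others could enter through higher WT levels, so their direction as a group is not read from this test. With no expression filter, when all 86 were tested, edgeR called 9 lower and 0 higher, against 0.372% of genes called lower. In that fit 56 of the 86 had an unadjusted p below 0.05 on the lower side and 0 on the higher side, where all genes gave 7.23% and 4.45%. Since inclusion of the 86 leaned toward WT reads, their direction as a group is not read from this fit either. DESeq2 called 23 lower of the 52 segments to which it gave an adjusted p, where 2.97% of genes were called lower, and 0 higher. The authors' deposited table lists 30 of the 86 as lower and 0 as higher at a false discovery rate below 0.05. Of all 21899 genes it lists 423 as lower and 100 as higher. DESeq2 used the same filtered genes as the first edgeR fit, and the authors' calls were counted among the same 86 segments. The direction of the segments as a group is not read from these counts either.

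Family Ighv5 held the largest fold changes among the 5 calls. Ighv5-6 (chr12:113625506-113625956) had 0, 2 and 3 counts in the KO libraries and 126, 97 and 133 in the WT libraries. Its mean level was 0.0949 ± 0.0843 CPM in KO and 5.93 ± 1.35 in WT (SD, n = 3), a log2 fold change of -5.90 ± 0.61 (SE, edgeR adjusted p = 0.0287). Ighv5-9 (chr12:113661769-113662293) had 3, 9 and 4 KO counts and 313, 219 and 99 WT counts. It averaged 0.309 ± 0.218 and 10.03 ± 4.03 CPM (-5.04 ± 0.55, edgeR adjusted p = 0.0330). Both were near absent from each KO library and present in each WT library. Neither reached the expression cutoff of 0.524 CPM in every KO library, so both could enter the test through their WT levels.

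The other 3 calls came from families Ighv1 and Ighv3. Ighv1-18 (chr12:114682632-114683065) had 6, 10 and 1 counts in KO and 142, 144 and 91 in WT, or 0.327 ± 0.283 and 6.17 ± 1.12 CPM (-4.25 ± 0.58, edgeR adjusted p = 0.0495). Ighv1-34 (chr12:114851190-114851660) had 34, 18 and 15 counts against 159, 157 and 110, or 1.22 ± 0.480 and 6.99 ± 0.925 CPM (-2.51 ± 0.34, edgeR adjusted p = 0.0495). Ighv3-6 (chr12:114288152-114288582) had 49, 51 and 20 counts against 323, 514 and 490, or 2.25 ± 1.07 and 22.5 ± 7.55 CPM (-3.32 ± 0.43, edgeR adjusted p = 0.0495). In none of the 5 did the groups overlap. Ighv1-18 also missed the expression cutoff in KO libraries and could enter through its WT levels. Ighv1-34 and Ighv3-6 reached the cutoff in every KO library. Ighv10-1, Ighv1-55 and Ighv1-81, named after their values were seen, came next by p without passing. Ighv10-1 had 3, 19 and 7 counts in KO against 189, 294 and 153 in WT (-4.24 ± 0.62, edgeR adjusted p = 0.0593). Ighv1-55 had 51, 14 and 21 counts against 236, 760 and 511 (-4.05 ± 0.59, edgeR adjusted p = 0.0593). Ighv1-81 had 31, 15 and 3 against 403, 979 and 263 (-4.91 ± 0.74, edgeR adjusted p = 0.0595).

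**Figure D2:**
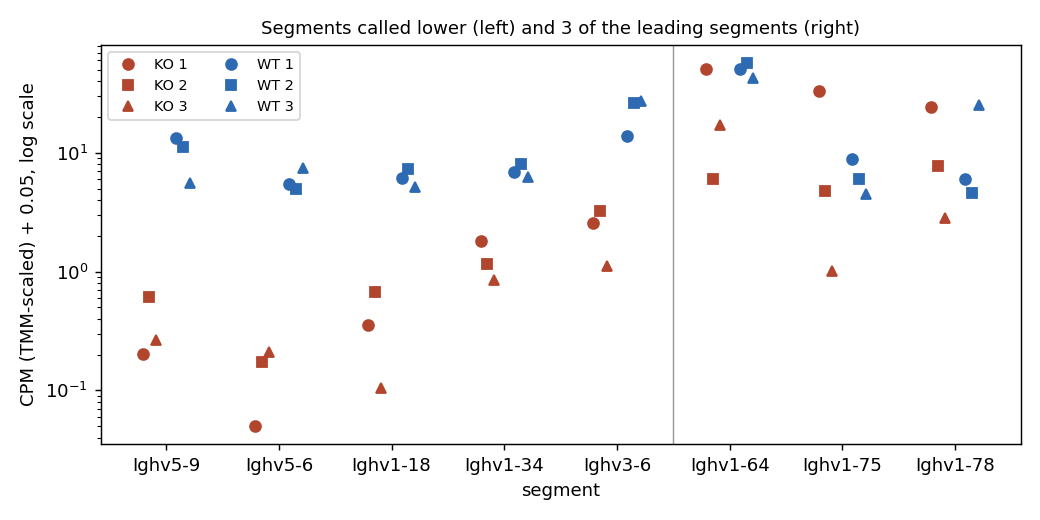
TMM-scaled CPM with 0.05 added, on a log axis, for the 5 segments called lower in KO (left of the line) and for Ighv1-64, Ighv1-75 and Ighv1-78, which were among the leading segments (right), with 1 point per library. The 3 KO points lie below the 3 WT points for each of the 5, while the groups overlap for the 3 on the right.

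The calls were close to the threshold. Of 6 edgeR fits that each left out 1 library, 2 called Ighv5-9 (adjusted p 0.0300 to 0.108), 1 called Ighv5-6 (0.0201 to 0.180), 1 called Ighv1-34 (0.0467 to 0.237), and none called Ighv1-18 (0.0572 to 0.180) or Ighv3-6 (0.0510 to 0.221), with all fold changes below 0. Over the 55 tested segments the median SD of log2 CPM within groups was 1.01, against 0.296 over 8454 other genes of the same range of mean level, and 53 of the 55 lay above that value.

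No segment was called higher. The highest fold change among those tested was that of Ighv2-3, with 21, 63 and 1 KO counts and 0, 16 and 4 WT counts (2.27 ± 1.31, edgeR adjusted p = 0.501). Ighv1-75 came next, with 642, 76 and 18 counts against 208, 117 and 79 (1.002 ± 0.98, edgeR adjusted p = 0.710). Ighv1-85 (0.17 ± 0.81), Ighv1-78 (-0.04 ± 0.83) and Ighv7-3 (-0.45 ± 0.92) followed, with edgeR adjusted p of 0.947, 0.988 and 0.865. All 5 overlapped between the groups. Ighv3-1, which was below the expression filter, had the highest ratio of the mean CPM in KO to that in WT of the 86, with 0.5 CPM added to each (2.05 on the log2 scale), and owed it to KO 2 alone, with 226 counts there against 9 and 1 in KO 1 and KO 3 and 6, 34 and 7 in WT.

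At the other end, 6 segments were at 0 counts in all 3 KO libraries and none was at 0 in all WT libraries. These 6 could only be included through WT reads, so that their direction was fixed by the inclusion rule and is not a result. Named for this reason after their values were seen, they were Ighv7-1 (0, 220 and 16 WT counts), Ighv2-4 (37, 13 and 4), Ighv1-84 (38, 0 and 1), Ighv15-2 (3, 22 and 0), Ighv1-71 (3, 1 and 7) and Ighv1-49 (1, 3 and 7). In Ighv7-1, Ighv1-84 and Ighv15-2 a single WT library held nearly all reads and another WT library had none, so the groups overlap. The last 2 were also the included segments nearest to the threshold of 10 summed counts, followed by Ighv3-4 with 18. Just outside it were Ighv8-2 with 8, Ighv5-2 with 7 and Ighv2-6-8 with 6.

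Which segment led differed between libraries. Segments were compared within a library by their share of the summed Ighv TPM, a transcript measure that corrects for length. Ighv1-64 led in KO 1 (18.1%), KO 3 (24.4%) and WT 1 (11.2%). Ighv3-1 led in KO 2 (14.1%), Ighv1-72 in WT 2 (10.8%) and Ighv11-2 in WT 3 (9.27%). The leading share was thus higher in each KO library than in any WT library, with means of 18.9% ± 5.18 and 10.4% ± 1.02 (SD, n = 3). As shares of Ighv counts, with exact 95% binomial intervals, they were 19.5% (18.5 to 20.7), 13.3% (11.8 to 15.1) and 25.7% (23.3 to 28.2) in the KO libraries. In the WT libraries they were 11.9% (11.2 to 12.5), 11.2% (10.8 to 11.6) and 11.1% (10.4 to 11.8). These intervals cover counting error only, since reads without molecular identifiers are not independent molecules.

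Below the leaders the libraries went further apart. In KO 1, Ighv1-75 (12.7%) and Ighv1-78 (9.18%) followed the leader. Ighv1-19 (9.37%) and Ighv9-3 (7.41%) did so in KO 2, and Ighv1-82 (14.1%) and Ighv10-3 (5.94%) in KO 3. The corresponding pairs were Ighv5-4 (8.88%) and Ighv1-19 (5.77%) in WT 1, Ighv2-2 (10.7%) and Ighv1-53 (5.17%) in WT 2, and Ighv1-64 (8.97%) and Ighv3-6 (6.71%) in WT 3. Only Ighv1-64 and Ighv1-19 thus reached the top 3 in libraries of both genotypes. Ighv1-64 had TPM shares of 18.1%, 5.18% and 24.4% in KO and 11.2%, 4.78% and 8.97% in WT, which overlap. Its counts were 998, 96 and 322 in KO and 1189, 1126 and 758 in WT (log2 fold change -1.01 ± 0.62, edgeR adjusted p = 0.528), so that its level in KO 1, 51.2 CPM, was within the WT range of 42.5 to 57.3. Ighv11-2 shows the opposite pattern, with 892 counts in WT 3 and 1 to 97 in each of the other 5 libraries.

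The 10 segments of highest mean TPM share over the 6 libraries were Ighv1-64, Ighv1-78, Ighv1-82, Ighv1-19, Ighv1-75, Ighv1-72, Ighv9-3, Ighv1-26, Ighv3-6 and Ighv2-2. Several owed their place to a single library. Ighv1-82 took 14.1% in KO 3 and 1.07% to 3.81% in each of the others, and Ighv2-2 took 10.7% in WT 2 and 0.625% to 2.79% in each of the others. Ighv9-3 was the only one of the 10 whose share was higher in every KO library (4.11%, 7.41% and 4.81%) than in any WT library (1.52%, 1.28% and 2.20%). Its level was not higher, with 196, 119 and 55 counts in KO and 140, 261 and 161 in WT (-0.47 ± 0.46, edgeR adjusted p = 0.708). Ighv1-26 had 6.85%, 4.67% and 1.57% in KO and 2.16%, 1.28% and 2.73% in WT, which overlap. In all, 4 of the 86 segments had a higher share in every KO library than in any WT library (Ighv9-3, Ighv7-3, Ighv2-3 and Ighv1-85). The share lay lower for 13. By CPM, an unlike measure, 8.89% of all genes with 10 or more counts were higher in every KO library and 10.1% lower. Among the 13 were Ighv2-4, Ighv1-71 and Ighv1-49, which had no KO count, so the inclusion rule fixed their direction. Neither number is read as a result about the segments. Shares of 1 library sum to a fixed total, so they are not independent of one another.

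**Figure D3:**
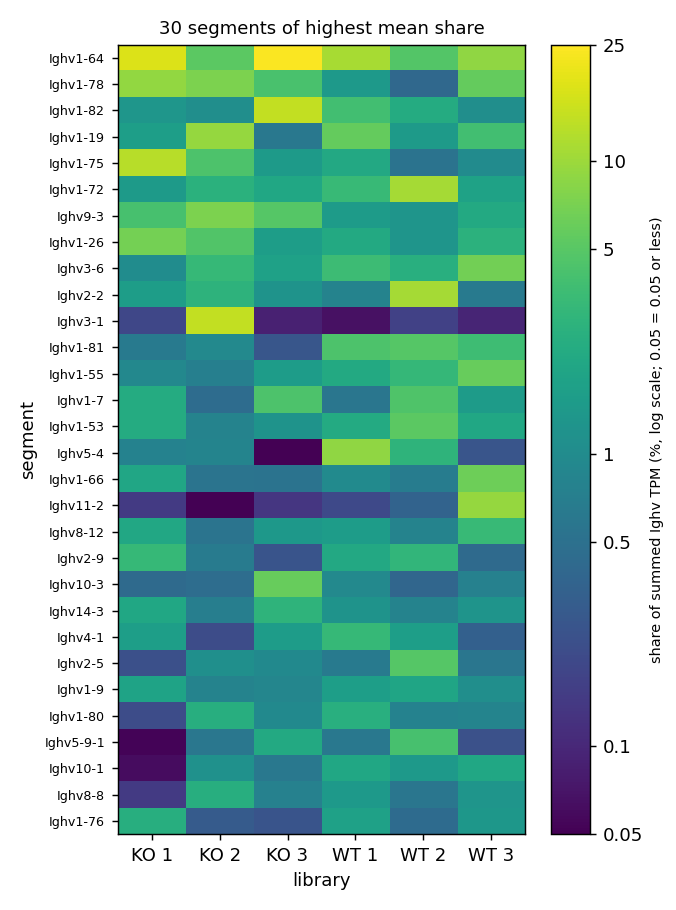
Share of the summed Ighv TPM of each library, on a log colour scale from 0.05% (or less) to 25%, for the 30 segments of highest mean share (rows) in the 6 libraries (columns). Rows are mostly uneven, with bright cells in single libraries such as Ighv3-1 in KO 2 (14.1%) and Ighv11-2 in WT 3 (9.27%), while Ighv1-64 is above 4% in all 6.

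Use of the segments was more concentrated in the KO libraries. The inverse Simpson index, the number of equally used segments that would give the same concentration, was 14.0, 18.4 and 10.6 in KO and 25.8, 22.8 and 24.0 in WT. The groups did not overlap, with means of 14.3 ± 3.93 and 24.2 ± 1.49 (SD, n = 3), a difference of -9.88 segments, or -8.01 without KO 3. An index that gives rarer segments more weight, the exponential of the Shannon entropy, gave 25.4, 29.9 and 22.7 in KO and 40.4, 36.6 and 36.9 in WT. The 3 leading segments together took 39.99%, 30.9% and 44.5% of the TPM in KO against 25.9%, 26.7% and 24.9% in WT. It took 5, 7 and 5 segments to reach 50% in KO and 11, 9 and 8 in WT. With the leading segment of each library left out, a check chosen after the data were seen, the inverse Simpson index was 17.3, 21.4 and 16.3 against 30.05, 24.7 and 24.9.

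Richness gave the same order. Segments with at least 1 count numbered 68, 67 and 66 in KO and 82, 83 and 83 in WT. Because KO libraries had fewer Ighv reads, the number expected among 1254 Ighv counts, the total of KO 3, was computed for each library. It was 59.6, 64.9 and 66.0 in KO and 72.4, 72.0 and 71.9 in WT, so the groups still did not overlap, though the difference of the means (KO minus WT) went from -15.7 to -8.61 segments. Between the groups the number of Ighv reads moved with both measures. Within KO the number of segments with at least 1 count (68, 67 and 66) also fell as Ighv reads fell. The expected number there did not, and was lowest in KO 1, which had the most Ighv reads. The part of read number in the difference was not tested. The choice of segments also leans toward WT, since WT libraries contributed most of the summed counts that decided inclusion. With every Ighv row included whatever its count, the expected numbers had means of 64.9 ± 4.25 in KO and 73.3 ± 0.418 in WT, at 1256 counts.

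**Figure D4:**
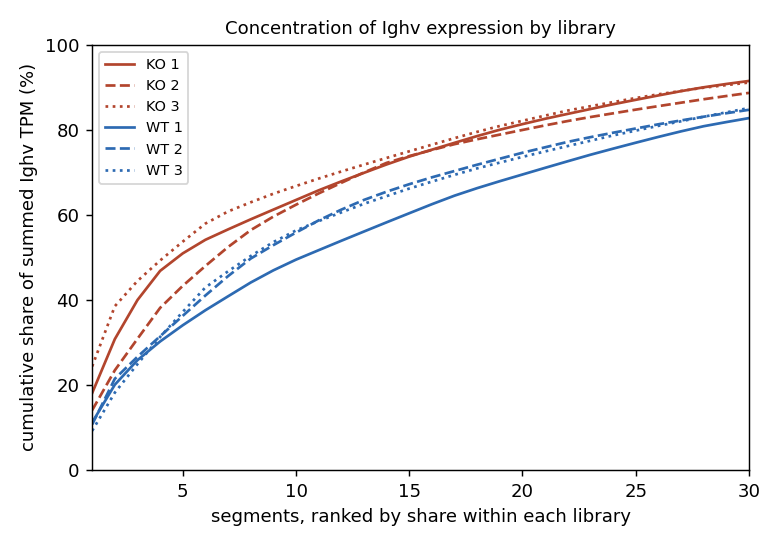
Cumulative share of the summed Ighv TPM (%) against the number of segments, ranked by share within each library, up to the first 30, with 1 line per library. The KO lines start at 14.1% to 24.4% and reach 62.4% to 66.8% with 10 segments, above the WT lines, which start at 9.27% to 11.2% and reach 49.5% to 56.3%.

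The 86 segments fell into 14 families. Family Ighv1, with 44 segments, took the largest TPM share in each library, 73.5%, 51.2% and 68.4% in KO and 60.1%, 53.3% and 58.7% in WT, which overlap. Family Ighv5, with 8 segments, had the largest fold difference among the families of more than 1 segment. Its summed level was 2.88, 4.46 and 3.76 CPM in KO and 70.4, 121 and 29.96 CPM in WT, 19.9-fold lower in KO and without overlap. Its share of the TPM was 0.99%, 3.93% and 5.44% in KO and 15.3%, 9.94% and 6.61% in WT, so it lay lower in every KO library also relative to the other segments. Besides Ighv5-9 and Ighv5-6, its other tested segments did not pass. Their log2 fold changes were -4.57 ± 1.30 for Ighv5-4, -4.50 ± 1.46 for Ighv5-9-1, -3.43 ± 0.69 for Ighv5-16 and -3.69 ± 0.88 for Ighv5-17, with edgeR adjusted p of 0.212, 0.261, 0.102 and 0.154. Of these, Ighv5-4 and Ighv5-9-1 overlapped between the groups, because WT 3 had 1.29 and 1.12 CPM of them. Ighv5-12 and Ighv5-15 were low in all 6 libraries, at 0.90 CPM or less.

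Family Ighv9 was the only family with a higher share in every KO library, 4.59%, 7.59% and 4.999% against 2.52%, 1.84% and 2.33%, and Ighv9-3 made up most of it. The single segment of family Ighv11 had a lower share in each KO library (0.14%, 0.05% and 0.13%) than in any WT library (0.20%, 0.36% and 9.27%), but the WT 3 value stood far above the rest. The other 11 families overlapped in share. As levels in CPM, 6 of the 14 families (Ighv1, Ighv5, Ighv8, Ighv10, Ighv11 and Ighv14) were lower in every KO library than in any WT library. Of single genes with 10 or more counts, 10.1% were. Ighv11 rested on 9, 1 and 2 KO counts of its segment. Segments could be included through WT reads, which favoured the lower direction in this number. Single libraries again stood out, with family Ighv2 at 20.3% in WT 2 and family Ighv3 at 17.6% in KO 2.

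**Figure D5:**
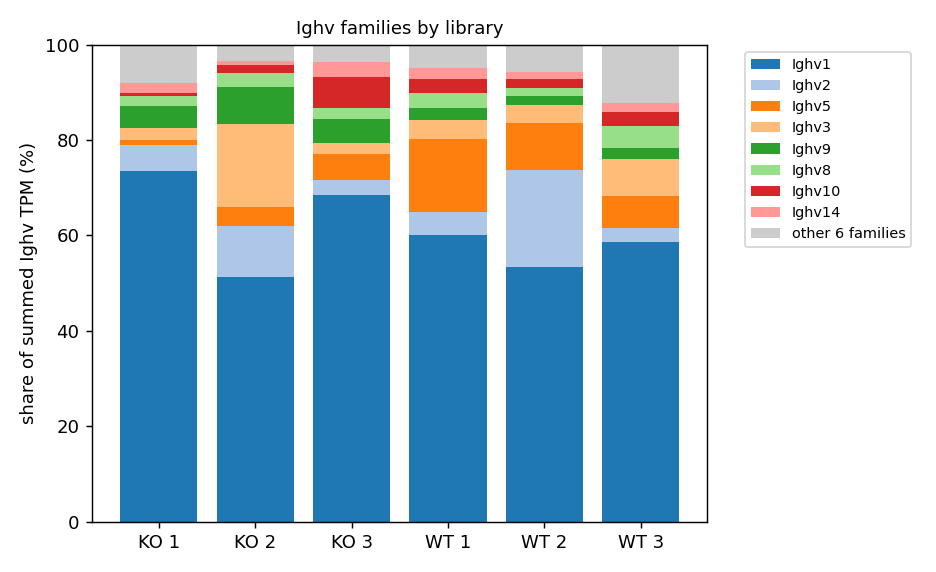
Share of the summed Ighv TPM (%) by family in each library, as stacked bars that sum to 100%, with the 8 largest families coloured and the other 6 in grey. Family Ighv1 is the largest block in all 6 libraries (51.2% to 73.5%), and family Ighv5 is a thinner block in the KO bars (0.99% to 5.44%) than in the WT bars (6.61% to 15.3%).

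Position along the locus was described in 3 stretches of equal length. The 34 segments nearest to Ighm took 21.2%, 42.2% and 22.5% of the TPM in KO and 32.8%, 41.1% and 32.2% in WT. The 23 most distant segments, of families Ighv1 and Ighv8, took 54.2%, 31.6% and 55.6% in KO and 39.7%, 32.6% and 43.8% in WT. The 29 in the middle took 21.9% to 26.2% in KO and 24.0% to 27.5% in WT. The groups overlapped in each stretch, with KO 2 on the far side of KO 1 and KO 3 in the outer stretches. The summed CPM was 6.79-fold lower in KO in the near stretch, 4.81-fold in the middle and 3.40-fold in the distant one. Family and position cannot be told apart here, since families Ighv2 and Ighv5 lie in the near stretch only.

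Similarity of segment use overlapped between pairs of libraries of the same genotype and pairs of different genotype. The Morisita-Horn similarity of TPM shares, which is 1 for identical use and 0 for no shared segment, was 0.367 to 0.720 for the 3 KO pairs, 0.456 to 0.650 for the 3 WT pairs and 0.364 to 0.621 for the 9 mixed pairs. Any pair of libraries shared 1 to 5 of their 10 leading segments. For 47 of the 86 segments a single library held over 50% of the summed CPM, and for 29 of these it was WT 2, which had the highest Ighv level. By TPM share, which gives each library the same total, the number was 36, with 8 each for WT 1, WT 2 and WT 3, 6 for KO 1 and 3 each for KO 2 and KO 3. Counts in all 6 libraries were found for 50 of the 86.

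Other transcripts of antibody-secreting cells differed from gene to gene in how they compared between the groups. The 8 heavy chain constant genes summed to 37774, 15248 and 13499 counts in KO and 99574, 159501 and 44519 in WT, with no overlap. For each 100 of these there were 13.5, 11.1 and 9.29 Ighv counts in KO and 10.1, 13.9 and 18.1 in WT, which overlap. The group means of the constant counts differed by 4.56-fold, beside 4.99-fold for the Ighv counts. Igha, the constant gene of IgA, made up 81.4%, 83.9% and 61.7% of constant counts in KO and 89.0%, 82.3% and 79.8% in WT. It had 1579, 793 and 446 CPM in KO and 3787, 6685 and 1993 in WT (-2.15 ± 0.55, edgeR adjusted p = 0.174). In KO 3 a larger part, 15.7%, came from Ighm and Ighd, the constant genes of B cells before class switching, against 1.35% to 4.66% in the other libraries. Ighg1, a constant gene of IgG, had 256, 81.9 and 19.2 CPM in KO and 8.89, 815 and 26.3 in WT, so WT 2 stood out for it as for Ighv. In edgeR none of the 8 heavy constant, 4 light constant, 12 plasma cell and 12 B cell genes tested passed, while 12 of these 36 had an unadjusted p below 0.05 on the lower side (7.85% of all genes tested) and DESeq2 called 7 lower (2.97% of genes). The summed level of the 12 plasma cell genes overlapped between the groups, at 1242 to 1708 CPM in KO and 1577 to 2582 in WT. Xbp1, Sdc1 and Txndc5 made up most of the KO sums, with means of 306, 292 and 581 CPM in KO and 342, 336 and 495 in WT. The sum thus says little about the other plasma cell genes. Among the plasma cell genes, Jchain, which links IgA dimers, had 289, 221 and 100 CPM in KO and 569, 1158 and 483 in WT (-1.86 ± 0.46, edgeR adjusted p = 0.162). Mzb1, a chaperone of antibody assembly, had 10.1, 4.27 and 5.85 against 22.4, 37.3 and 16.8 (-1.92 ± 0.39, edgeR adjusted p = 0.108). Neither overlapped between the groups. By contrast Xbp1 (-0.16 ± 0.22, edgeR adjusted p = 0.792), Sdc1 (-0.20 ± 0.23, 0.746) and Txndc5 (0.23 ± 0.21, 0.695), which epithelial cells also express, overlapped. Tnfrsf17 (-1.11 ± 0.57, edgeR adjusted p = 0.453), Slamf7 (-0.83 ± 0.32, 0.336) and Fkbp11 (0.58 ± 0.26, 0.388) overlapped too. Prdm1 (-1.19 ± 0.34, edgeR adjusted p = 0.219), Irf4 (-1.17 ± 0.38, 0.265), Derl3 (-1.63 ± 0.63, 0.338) and Pou2af1 (-1.38 ± 0.34, 0.162) did not overlap and did not pass. The part of the number of plasma cells in the Ighv difference was not tested.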

How the data were processed

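Total RNA of colon was sequenced after SMARTER mRNA-Seq library preparation, per the labels' protocols. Builds named in the submitters' processing notes are GRCm38, mm10 and mm39. Aligner, counter, use of strand and treatment of multiply matching reads are not stated there or in the labels. For each gene the authors deposited whole-number read counts, TPM, a log2 fold change and a p-value with its false discovery rate. Counts were used as deposited, in columns matched to samples by title number and genotype.

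Genes were tested with edgeR 4.0.16 (quasi-likelihood, R 4.3.3), using TMM factors and, by group, the default expression filter, which left 14553 genes, with Benjamini-Hochberg adjustment. It was tested on simulated data. Standard errors derive from the F statistic and are approximate. Fold changes are KO over WT on the log2 scale. Their median over all tested genes was 0.03. The biological coefficient of variation was 29.0%. Alternatives were median-ratio factors, DESeq2 1.42.0, limma-voom (limma 3.58.1), other filters, the title number as a block and leaving out each library. Shares within a library used the deposited TPM. Ranges of counts set the precision, and 1 count was worth 0.0797% of Ighv counts in KO 3 and 0.00451% in WT 2. The segments, marker lists and rules were chosen with earlier results of these data known. Segments named were those called, the 10 of highest mean share, the top 3 of each library, the 5 of highest fold change and those nearest the inclusion threshold. Others were named after their values were seen, among them segments without KO counts, those next to pass and the rest of family Ighv5.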

Additional observations from a re-analysis of the deposited data

How the results depend on the processing

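The number of Ighv segments called lower depended on the test. edgeR called 5 with TMM factors, 2 with median-ratio factors and 9 with no expression filter, limma-voom called 4, and DESeq2 called 23. Over all genes tested, these fits called 22 of 14553, 9 of 14553, 66 of 17758, 27 of 14553 and 431 of 14511 lower. Fits that left out 1 library called 0 to 5. These were 0 without KO 2, KO 3 or WT 2, 1 without WT 1 or WT 3, and 5 without KO 1. Of the 5 without KO 1, 3 were among the 5 of the full data. In the same order, 1 of 14809, 3 of 14793, 5 of 14756, 5 of 14746, 4 of 14754 and 29 of 14778 genes were called lower. Without KO 2, KO 3 or WT 2, 35 of 71, 39 of 73 and 26 of 57 segments tested had an unadjusted p below 0.05 on the lower side. So did 1019, 1067 and 922 of all genes tested. On the higher side, 2 segments had such a p without KO 3, and none did without KO 2 or WT 2. The expression filter was applied anew in each of these fits, and segments could again enter through higher WT levels. Their direction as a group is therefore not read from these numbers. No fit called a segment higher. With the replicate number as a block edgeR called 13, including the 5, where 78 of 14553 genes were called lower. The numbers pair no samples by the labels, and the correlations of the deviations of same-numbered libraries were -0.41, -0.14 and -0.42, so the block is given only as an alternative. Of the 36 antibody, plasma cell and B cell genes, edgeR called 0 and DESeq2 7. The cause of these differences was not tested.

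The summed Ighv level kept its direction under other scalings and when any library was left out, with log2 ratios from -2.96 (without KO 1) to -1.60 (without WT 2). The difference in the effective number of segments stayed between -12.0 and -8.01, and that in the leading share between 5.71 and 10.8 percentage points. The share of family Ighv1 was higher in KO by 7.01 percentage points on average, within overlapping groups, and by 2.43 without KO 1 and 13.6 without KO 2. Depth limits single segments most in KO 3, where 1254 Ighv counts were spread over 66 segments.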

Other observations

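B cell surface and transcription factor genes overlapped between the groups in summed level, unlike the Ighv segments, but KO 3 carried this overlap. The summed level of 12 B cell markers was 21.6, 37.6 and 154 CPM in the KO libraries and 54.2, 94.7 and 91.8 in the WT libraries. It was highest in KO 3, the library with the fewest Ighv counts. Without KO 3, both KO sums lay below every WT sum. None of the 12 passed in edgeR or DESeq2, and 0 had an unadjusted p below 0.05 in edgeR. Cxcl13, a B cell attractant, chosen after its values were seen, had 4.21, 5.64 and 3.76 CPM in KO and 43.8, 18.6 and 49.0 in WT (log2 fold change -3.04 ± 0.38, edgeR adjusted p = 0.0483).

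Transcripts of V(D)J recombination were near absent in these colons. Rag1 had no count in any library, and Rag2 had 2, all in WT 2. WT 2, which had the most Ighv counts, also had 194 counts of Ighe, the constant gene of IgE, against 0 to 26 in each of the other 5 libraries. Ighe was chosen after its values were seen. The 4 rows of J segments and 17 rows of D segments held 0 counts over all libraries, so only the V part of the heavy chain join can be described from this table.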
